A study of Mus musculus with 52 samples.

Results

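The 39 genes described here encode subunits of the receptors for glutamate and GABA, the main excitatory and inhibitory transmitters of the cortex. They were chosen by name from a table of 15692 genes: symbols that start with Gria, Grid, Grik or Grin and a digit, Grm with a digit from 1 to 8, and symbols that start with Gabra, Gabrb, Gabrg, Gabrd, Gabbr1 or Gabbr2. The letters match 40 rows, and 1 of them, which encodes a partner protein and not a receptor subunit, was left out. The members comprise 4 AMPA, 5 kainate, 2 delta, 7 NMDA, 7 metabotropic glutamate, 12 GABA-A and 2 GABA-B receptor genes. Gabra6 and Grm6 are not analysed here. The rule uses symbols and no measured value.

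RNA came from the frontal cortex of 52 mice, 1 library per animal. Every mouse carried the APP/PS1ΔE9 transgenes, which encode a human APP and a presenilin 1 variant and drive amyloid plaque formation, and was homozygous for human APOE3 or human APOE4, inserted by targeted replacement (APP/E3 and APP/E4). There were 8 groups of genotype, diet and sex. The APP/E3 animals were 6 males and 7 females on normal diet (ND) and 6 males and 8 females on a high-fat Western diet (HFD, 40% of calories from fat), and the APP/E4 mice were 6 males and 7 females on ND and 5 males and 7 females on HFD. Per the protocols, the diets began when mice were 3.5 months old on average and lasted 3 months, and behaviour was tested at 14.7 months on average. No group without the APP transgenes and no group with mouse Apoe is among these libraries, so every comparison is within plaque-forming mice with a human APOE gene.

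Glutamate acts on ion channels of the AMPA, kainate and NMDA families, each assembled from several subunits, and on metabotropic receptors coupled to G proteins. AMPA receptors carry most fast excitation, NMDA receptors need GluN1 together with GluN2 or GluN3 subunits and admit calcium, and the delta proteins act mainly as synaptic organisers. GABA-A receptors are chloride channels, most often of alpha, beta and gamma or delta subunits, while the GABA-B receptor is an obligate dimer of the products of Gabbr1 and Gabbr2 that signals through G proteins. Subunit composition sets where a receptor sits and how fast it opens and closes.

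Total counts ran from 5.34 to 13.1 M per library and reached 39.4 M in 1 further library, APP/E3 ND male 5. All 39 members passed the filter on low counts. Several features of the libraries that the labels do not name moved with the members and are given beside the results. The first is a read class, from clustering the libraries on 311 pseudogenes: 33 libraries of class 1 from all groups, 11 of class 2, which were all from females, and 8 of class 3, which were all from males whose titles lack a sex letter. The second is a long-transcript index, the mean log2 level of 836 genes with transcripts of at least 8000 bases minus that of 1677 genes with transcripts under 1500 bases, members left out. It lay below -0.4 in 4 libraries (APP/E3 ND male 2, APP/E4 ND male 6, APP/E3 HFD female 1 and APP/E3 ND female 1). The summed level of 10 striatal markers ran from 332 to 3533 CPM (counts scaled to library size by TMM), that of 6 olfactory bulb markers from 6.56 to 1017 CPM and that of 6 choroid plexus markers from 10.2 to 2595 CPM, so libraries differed widely in markers of neighbouring tissue. Of the excitatory cortical markers, Slc17a7 lay between 972 and 1999 CPM and Tbr1 between 72.5 and 198 CPM, present in every library as the label of frontal cortex implies. In bulk tissue, fewer cells of a type and less RNA per cell cannot be told apart.

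Per kilobase of exon, Grin1 and Gabbr1 stood highest in their classes. Grin1, which encodes the GluN1 subunit shared by NMDA receptors, stood at 116 ± 7.63 CPM per kb (SD, n = 52 libraries) and Gabbr1 at 124 ± 6.66. Summed over a class, the 12 GABA-A genes reached 494 ± 46.6 CPM per kb, the 4 AMPA genes 245 ± 18.6, the 2 GABA-B genes 169 ± 12.6, the 7 NMDA genes 137 ± 7.45, the 7 metabotropic genes 108 ± 9.35 and the 5 kainate genes 94.6 ± 6.31. Exon lengths are unions over annotated transcripts, so a gene with a long, rarely used 3′ UTR is scaled down by this measure.

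**Figure D1:**
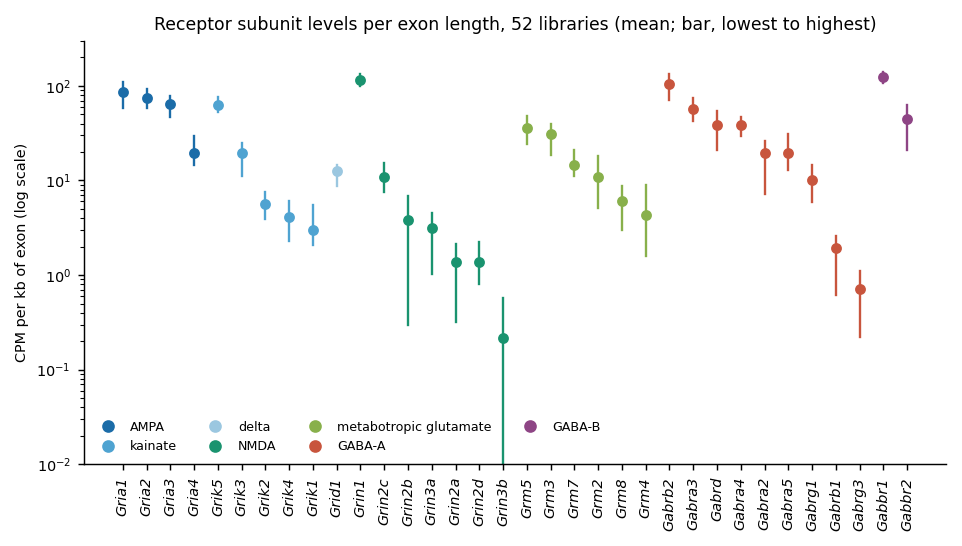
Mean level of 34 of the 39 subunits per kilobase of exon over 52 libraries, on a log axis, with bars from the lowest to the highest library and colours for the receptor class. Gabbr1, Grin1 and Gabrb2 have means above 100 CPM per kb, and the bar of Grin3b runs off the axis because 1 library has no count of it.

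Among AMPA subunits, Gria1 had the highest level per kb (87.2 ± 11.5 CPM per kb) and Gria4 the lowest (19.3 ± 2.54). Without scaling by length Gria2 stood above Gria1, at 781 ± 73.3 against 504 ± 66.8 CPM. Gria2, whose edited product keeps AMPA channels closed to calcium, made up 30.4 ± 1.63% of the AMPA sum per length, with a range of 26.5 to 34.0% over all libraries. Among kainate subunits, Grik5, encoding the high-affinity subunit GluK5 that works only with GluK1 to GluK3, held 65.9 ± 3.47% of the sum at 62.4 ± 5.71 CPM per kb, and Grik1 was lowest at 3.01 ± 0.578. The delta gene Grid1 stood at 12.5 ± 1.42 CPM per kb.

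NMDA subunits spread widest. Grin2c, the GluN2 subunit found in astrocytes and in cerebellar granule cells, stood at 10.9 ± 1.92 CPM per kb, above Grin2b at 3.85 ± 1.39 and Grin2a at 1.38 ± 0.404, the main GluN2 subunits of cortical neurons. Grin2b and Grin2a have the longest annotated transcripts of the 39 members, with 24060 and 14634 bases, and their level per length rests on that length most. Without scaling by length Grin2b stood above Grin2c, at 95.5 ± 34.4 against 54.8 ± 9.66 CPM, and Grin2a below both at 20.7 ± 6.04. Grin3b had the lowest level, 0.216 ± 0.124 CPM per kb, with a median of 6 counts and no count in 1 library. Because 3 counts correspond to between 0.0762 and 0.561 CPM in these libraries, counting error alone makes Grin3b uncertain.

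Among metabotropic receptors, Grm5 (35.5 ± 6.17 CPM per kb), a postsynaptic receptor coupled to phospholipase C, was highest, and Grm4 (4.31 ± 1.57), a presynaptic receptor, lowest. Among GABA-A genes, Gabrb2 (105 ± 15.8), a beta subunit, led and Gabrg3 (0.706 ± 0.205), a gamma subunit, was last. Within the beta family, Gabrb2 made up 61.5 ± 2.67% of the sum per length. Gabbr2 stood at 45.2 ± 8.34 CPM per kb, below its partner Gabbr1.

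The spread between animals of 1 group differed from gene to gene. Gabbr1 and Grin1 varied least, with a standard deviation within groups of 0.07 and 0.10 on the log2 scale. Grin2b varied most, with 0.78, followed by Grin3b with 0.74, Grm4 with 0.55 and Grin2a with 0.51. A difference of a given size is therefore far easier to detect in Gabbr1 than in Grin2b.

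Whether receptor expression goes with the human APOE allele was tested between the genotypes, with diet and sex weighted equally. 2 of 39 members passed an adjusted p of 0.05, and both were lower in APP/E4: Grik5 and Gabbr1. Over all 15195 genes tested 6.79% passed, 3.4% in the lower direction, so the members' count is near that of genes in general. At an unadjusted p under 0.05 there were 5 members (12.8%) against 21.3% of all genes. The median log2 difference was -0.00026 over the members and -0.00011 over all genes, with 19 members higher and 20 lower. Of the 5 kainate genes 4 (all but Grik2) and both GABA-B genes had fitted values on the lower side.

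Grik5 lay between 200 and 286 CPM in the 27 APP/E3 libraries, with a median of 242, and between 197 and 256 CPM in the 25 APP/E4 libraries, with a median of 221. The genotypes thus overlap over most of their range. The mean was lower in APP/E4 in each of the 4 combinations of diet and sex: 228 against 244 CPM in ND males, 217 against 231 in HFD males, 222 against 261 in ND females and 228 against 240 in HFD females. In ND females 6 of 7 APP/E3 libraries stood above every APP/E4 library, and the share of all genes that do so was not computed. The fitted difference was -0.12 ± 0.03 on the log2 scale (SE, adjusted p = 0.0141, edgeR), or 0.919-fold. Within ND females alone it was -0.23 ± 0.06 (adjusted p = 0.0498), a contrast added after the values were seen, in which 0.961% of all genes passed, and that call was lost in 38 of 52 fits without 1 library (adjusted p 0.00520 to 0.144). The interaction of genotype with sex was -0.06 ± 0.06 (adjusted p = 0.952), so a larger effect in females was not shown.

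Gabbr1 lay between 775 and 927 CPM in APP/E3, with a median of 837, and between 711 and 866 CPM in APP/E4, with a median of 812. Group means were lower in APP/E4 in all 4 combinations, by the widest margin in ND males (808 ± 34.1 against 862 ± 42.6 CPM, SD, n = 6 and 6) and the narrowest in ND females (802 ± 53.9 against 828 ± 36.2, n = 7 and 7). The fitted difference was -0.07 ± 0.02 (adjusted p = 0.0404), 0.951-fold, the smaller of the called differences. Its partner Gabbr2 ranged from 190 to 362 CPM in APP/E3 and from 119 to 322 in APP/E4, with medians of 281 and 237. Its fitted difference of -0.22 ± 0.07 was larger but did not pass (adjusted p = 0.0615, edgeR). It passed in 3 of 10 other settings: without the 3 libraries apart in choroid plexus or depth (-0.25, adjusted p = 0.0342), with the long-transcript index as a term (-0.24, 0.0459) and with DESeq2 (-0.22, 0.0483). It also passed in 5 of 52 fits without 1 library, and in class 1 alone it was -0.12 (adjusted p = 0.617). Grin2b, the NMDA subunit, had the widest fitted genotype difference of the members, 0.29 ± 0.17 (adjusted p = 0.339), from 7.42 to 150 CPM in APP/E3 (median 82.6) and 20.4 to 172 in APP/E4 (median 106).

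**Figure D2:**
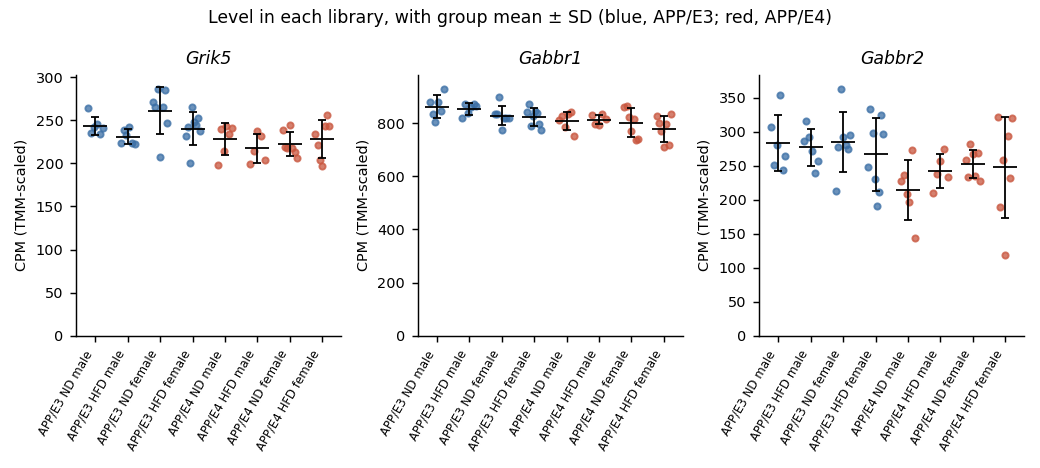
CPM of Grik5, Gabbr1 and Gabbr2 in every library by group, with the group mean ± SD in black, APP/E3 in blue and APP/E4 in red. The APP/E4 means of Grik5, from 217 to 228 CPM, lie below the APP/E3 means, from 231 to 261 CPM, while single libraries overlap.

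The Grik5 call held under 9 of 10 other settings and in all 52 fits that left out 1 library. With read class as a term it was -0.13 (adjusted p = 0.00238, where 8.59% of all genes passed). It was lost with the 33 class 1 libraries alone (-0.12, adjusted p = 0.0736), where 0 of 39 members and 2.69% of genes passed. In the other settings the share of all genes called was 8.71% with title style as a term, 11.3% with both terms, 6.52% with no filter, 6.6% with limma voom, 8.01% with DESeq2, 6.8% without the 3 libraries apart in choroid plexus or depth, 6.59% with the index as a term and 6.79% without its 4 lowest libraries. Gabbr1 was lost in 20 of the 52 fits (adjusted p 0.0246 to 0.0666, the highest without APP/E3 ND female 3) and in 3 of the 10 settings (adjusted p up to 0.259, in class 1 alone). Microglial markers moved with Grik5: across libraries, as deviations from group means, Grik5 and the 6-marker microglial score had r = 0.65 and rho = 0.68 (permutation adjusted p = 0.000207 each, n = 52), 0.62 without the 2 libraries farthest out and 0.61 in class 1. The summed microglial level was highest in APP/E4 HFD females (502 to 700 CPM, median 646) and lay at medians from 457 to 501 in the other 7 groups. Excitatory neuron markers moved with Gabbr2 (r = 0.85), whose lowest group, APP/E4 ND males, was also lowest in their median sum (4687 CPM, against 5517 to 6823 in the other groups). APP/E4 HFD females had the highest median sum, with libraries from 3781 to 7773 CPM. Their Gabbr2 ran from 119 to 322 CPM (median 259), and medians of the APP/E3 groups were 272 to 281 CPM. The part of either in the genotype differences was not tested.

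Grik5 lies on chromosome 7, as does Apoe, the gene replaced in these lines. Of 27 tested genes between them, 2 were called between genotypes (7.41%), both lower in APP/E4, and of the nearest 20 tested genes on each side of Grik5, 2 of 40 were (Irgq at -0.12 and Gsk3a at -0.12). Around Gabbr1, on chromosome 17, 0 of 40 were called. These shares are near or below the 6.79% of all genes. The 40 neighbours of Grik5 had 26 of 40 on the lower side in APP/E4, with a median log2 difference of -0.07, against -0.00011 over all genes. On the side of higher coordinates 17 of 20 were lower, and on the other 9 of 20. Around Gabbr1, 18 of 40 were lower, with a median of 0.0070. The lean around Grik5 was not particular to it. Around Grin3b on chromosome 10, 33 of 40 were lower (median -0.07), and around Grin1 on chromosome 2, 30 of 40 (median -0.04). Neighbours of other members leaned the other way, such as those of Gria2 on chromosome 3, with 13 of 40 lower (median 0.03). What moves with position along chromosome 7 was not tested further.

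The promoters of the 2 called members are shown because their transcripts differed between genotypes. Each is a window of 300 bases on the GRCm38.p6 assembly, from RefSeq, 250 before and 50 after the annotated start, with GC boxes (GGGCGG on either strand, the core of Sp1 sites) in capitals. Grik5 has 2 at chr7:25072320-25072619 on the minus strand, and Gabbr1 has 3 at chr17:37045716-37046015 on the plus strand.
Grik5: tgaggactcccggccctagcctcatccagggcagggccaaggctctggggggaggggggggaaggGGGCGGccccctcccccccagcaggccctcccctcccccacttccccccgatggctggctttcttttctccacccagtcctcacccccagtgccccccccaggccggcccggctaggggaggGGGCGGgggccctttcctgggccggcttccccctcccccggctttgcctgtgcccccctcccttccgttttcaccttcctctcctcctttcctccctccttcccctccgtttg
Gabbr1: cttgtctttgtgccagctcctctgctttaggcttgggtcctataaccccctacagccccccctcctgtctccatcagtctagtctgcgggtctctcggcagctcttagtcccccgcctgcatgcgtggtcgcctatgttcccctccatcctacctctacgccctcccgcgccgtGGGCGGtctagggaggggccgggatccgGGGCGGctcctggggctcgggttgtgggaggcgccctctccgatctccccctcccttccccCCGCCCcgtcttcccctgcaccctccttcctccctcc
Both windows lack a TATA box (TATAAA on either strand). Of 31 annotated promoter windows of 24 members, 51.6% hold a GC box, against 35.7% of 32851 windows of all genes, and 12.9% hold a TATA box, against 13.6%. The median ratio of observed to expected CpG was 0.541 over the members and 0.384 over all windows. These matches describe the letters only.

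No member passed between females and males with edgeR (0 of 39, where 4.42% of all genes passed), and limma voom and DESeq2 also called 0 (5.32% and 5.51% of all genes). At an unadjusted p under 0.05 there were 10 members (25.6%) against 18.9% of all genes. The fitted values lay lower in females for 30 of 39 members, all 12 GABA-A genes among them, with a median of -0.06 against 0.0027 over all genes. That direction is not stable: with a term for title style, which separates males with and without a sex letter, only 14 of 39 were lower, and with the long-transcript index as a term 20 of 39. Grin3b had the widest fitted difference, -0.29 ± 0.24 (adjusted p = 0.560), from 0.103 to 1.86 CPM in males (median 0.781) and 0 to 1.61 CPM in females (median 0.576). Grin2b followed at -0.27 ± 0.17 (adjusted p = 0.404).

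With 1 library left out, Grm5 was called lower in females in 4 of 52 fits, Gria2 in 2 and Gria1 in 1. Which members passed between the sexes depended on the libraries used. Without the 4 libraries lowest in the long-transcript index, 5 members passed and were lower in females, 4 of which are named here, where 9.3% of all genes passed (3.84% in the lower direction): Grin2b at -0.32 ± 0.09 (adjusted p = 0.0217), Grm5 at -0.22 ± 0.06 (0.0169), Grid1 at -0.12 ± 0.04 (0.0493) and Gria2 at -0.11 ± 0.03 (0.0174). With the index as a term instead, 0 members and 2.78% of all genes passed, and Grin2b turned to 0.18 ± 0.08. The number of all genes called between the sexes rose likewise without the 4 libraries, from 671 to 1410. The mean index was -0.05 ± 0.17 (SD) in 29 females and 0.06 ± 0.29 in 23 males, and its part in the sex difference was not tested further.

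No member was called for diet, the treatment in this design. Averaged over genotype and sex, 0 of 39 members and 0 of all 15195 genes passed (edgeR), 0 members did so with limma voom or DESeq2 (0 and 0.0132% of all genes), and 0 members had an unadjusted p under 0.05 against 9.2% of all genes. The widest difference was that of Grin3b, -0.21 ± 0.24 (adjusted p = 0.840), from 0.105 to 1.86 CPM on ND and 0 to 1.61 on HFD. The median over the members was 0.0053 and over all genes -0.0020, and the median size regardless of sign was 0.03 against 0.05. For Gabbr1, the tightest member, the diet difference was -0.01 ± 0.02, and for Grin1 it was -0.01 ± 0.03.

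The same held within genotype and sex. In APP/E3 males, APP/E3 females, APP/E4 males and APP/E4 females 0 of 39 members passed for diet with edgeR, limma voom or DESeq2, and 3, 0, 0 and 4 members had an unadjusted p under 0.05 (7.69%, 0%, 0% and 10.3% of the members, against 13.6%, 4.69%, 3.65% and 7.9% of all genes). Among all genes 0.0263% passed in APP/E3 females and 0 in the other 3. The interactions of diet with genotype, diet with sex and genotype with sex also called 0 members, with 5, 2 and 0 at an unadjusted p under 0.05 (9.97%, 7.84% and 5.11% of all genes), while 0, 0 and 0.00658% of all genes passed. Gria2 had the smallest unadjusted p of the members for diet with sex, a difference of -0.19 ± 0.07 (adjusted p = 0.5998). Fitted diet differences lay on the higher side for 29 of 39 members in APP/E3 males (median 0.10, against -0.01 over all genes) and for 12 of 39 in APP/E4 females (median -0.05 against 0.0051). The interaction of diet with genotype lay on the lower side for 31 of 39 (median -0.11 against 0.01). The long-transcript index moved with these: its group mean was -0.11 in APP/E3 ND males and 0.24 in APP/E3 HFD males, and its part was not tested for these medians.

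**Figure D3:**
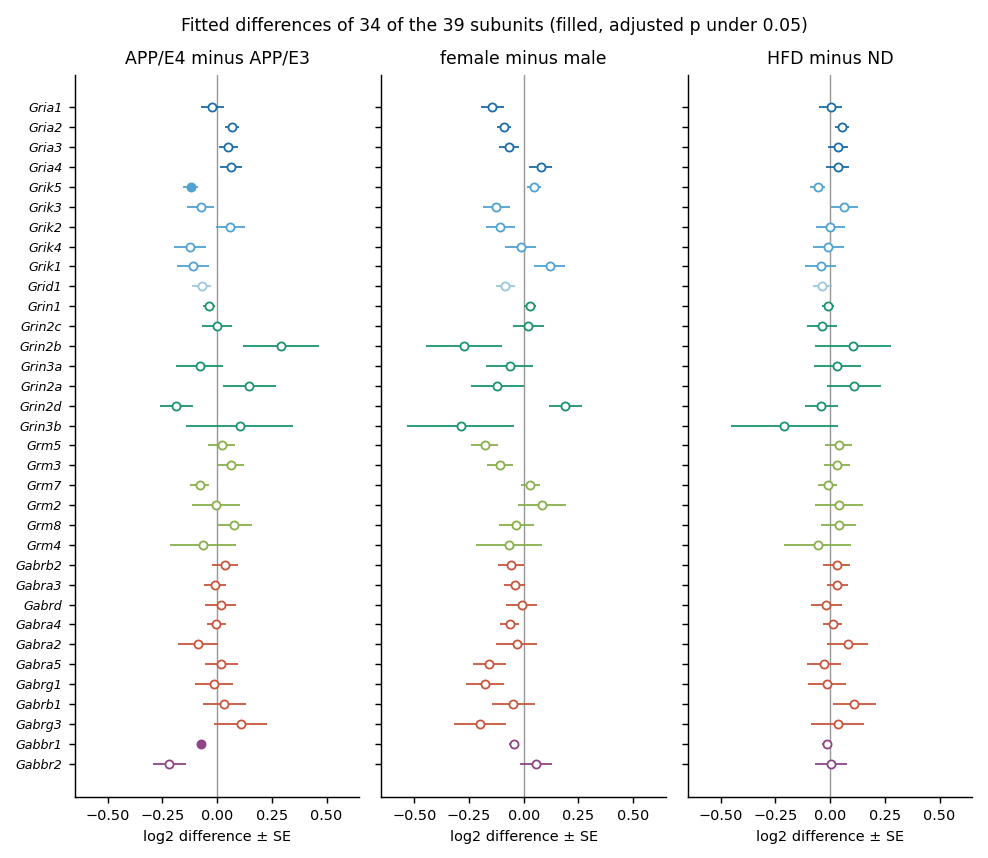
Fitted log2 differences ± SE of 34 of the 39 subunits between genotypes, sexes and diets, ordered and coloured by receptor class. Filled points passed an adjusted p of 0.05: Grik5 and Gabbr1 between genotypes, and none between sexes or diets.

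A test for any difference among the 8 groups called 1 member, Gria2 (adjusted p = 0.0425), where 5.71% of all genes passed. Gria2 stood highest in HFD males, with 807 to 910 CPM (median 839) in APP/E3 and 737 to 982 CPM (median 854) in APP/E4. It stood lowest in APP/E3 ND females, at 676 to 784 CPM (median 717). In APP/E3 the lowest HFD male (807 CPM) lay just above the highest of the other libraries (805 CPM). The share of all genes that separate in this way was not computed. The APP/E4 groups overlapped. The call was lost in 23 of 52 fits without 1 library (adjusted p 0.00851 to 0.0814, the highest without APP/E4 HFD male 5) and in 5 of 10 other settings, among them the index as a term (adjusted p = 0.505, where 3.47% of all genes passed). It was also lost with read class as a term (5.9% of all genes), in class 1 alone (1.83%), with title style as a term (4.23%) and without the 3 libraries apart (4.97%). It held with both terms (7.35%), no filter (5.79%), limma voom (6.84%), DESeq2 (9.93%) and without the 4 lowest libraries (6.97%). The median index was lowest in APP/E3 ND females (-0.18), as was Gria2, and was 0.20 in APP/E3 HFD males and 0.14 in APP/E4 HFD males, the groups where Gria2 was high.

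Ratios of paired subunits within a library do not depend on scaling between libraries. The log2 ratio of Grin2a to Grin2b counts, the pair that exchanges during cortical development, was -2.24 ± 0.296 (SD) in APP/E4 and -2.04 ± 0.415 in APP/E3, a stratified difference of -0.19 (permutation p = 0.0627, adjusted over 9 tests 0.351). That of Gria1 to Gria2 was -0.68 ± 0.223 and -0.59 ± 0.202, a difference of -0.09 (permutation p = 0.117, adjusted 0.352). None of the 9 tests over genotype, sex and diet passed in all libraries. A ratio can still move with the long-transcript index, on which Grin2a and Grin2b had slopes of 2.01 and 3.11 log2 per unit. Without the 4 libraries lowest in the index, the genotype difference of Grin2a to Grin2b was -0.10 (permutation adjusted p = 0.334). In class 1 alone, 33 libraries, Gria1 to Gria2 differed between genotypes by -0.16 (adjusted p = 0.0392).

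Many members varied between libraries with the long-transcript index, which has no label. Grin2b lay between 7.42 and 172 CPM. In 4 libraries it stood at 7.42 CPM (APP/E3 ND male 2), 14.97 CPM (APP/E3 HFD female 1), 20.4 CPM (APP/E4 ND male 6) and 41.4 CPM (APP/E3 ND female 1), and the next lowest, an APP/E4 HFD male, had 50.4 CPM. These are the 4 libraries lowest in the long-transcript index. Across 52 libraries Grin2b had r = 0.91 and rho = 0.90 with the index (permutation p = 1e-05, the smallest that the draws can give, adjusted p = 3.5e-05 over 78 correlations), 0.87 without the 2 libraries farthest from the median, 0.86 without the 4 lowest, 0.92 within class 1 and 0.92 as deviations from group means.

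The relation followed transcript length over the members. The 5 members with the highest r were the 5 with the longest annotated transcripts, in the same order: Grin2b (24060 bases, r = 0.91), Grin2a (14634, 0.87), Gabrb1 (13737, 0.83), Gria2 (10371, 0.76) and Gabrg3 (9767, 0.75). Over 39 members, transcript length and r had a Spearman rho of 0.67, 3′ UTR length and r 0.71, and the rest of the transcript and r 0.06. This is across genes, which share libraries and are not replicates, and is given as a description. Of the 39 members 20 had a positive and 1 a negative r at an adjusted p under 0.05, and the share of all genes was not computed. The negative one was Grik5 (r = -0.34, adjusted p = 0.027, rho = -0.49), with a transcript of 3763 bases, and its r was -0.14 as deviations from group means. The index is itself built from long and short transcripts of other genes, so the relation places these receptor genes on an axis shared with the rest of the table. RNA integrity numbers per library are not among the labels beyond a minimum, and their part was not tested.

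**Figure D4:**
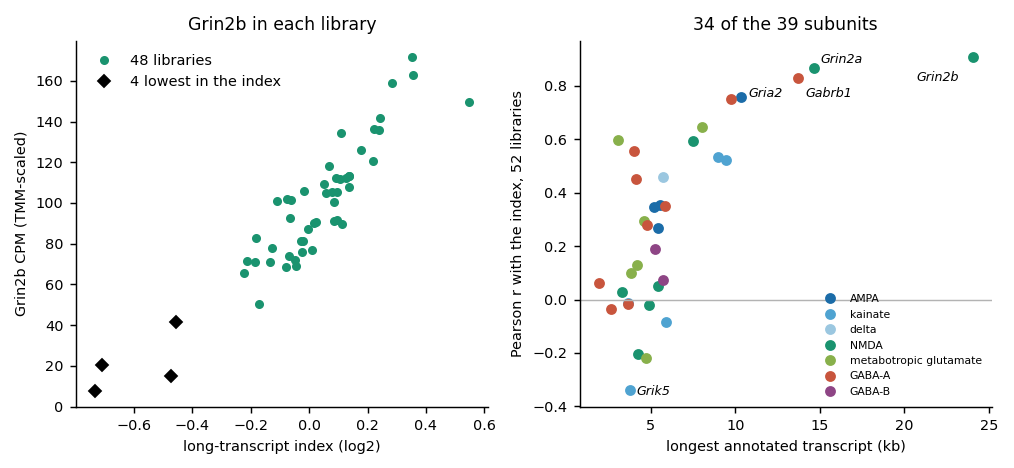
Left, Grin2b CPM in each library against the long-transcript index, with the 4 lowest libraries as diamonds between 7.42 and 41.4 CPM. Right, Pearson r with the index over 52 libraries for 34 of the 39 subunits against its longest annotated transcript in kb, from -0.34 for Grik5 to 0.91 for Grin2b.

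Members differed between the read classes. Between class 2 and class 1, in a fit with the 8 groups, 10 of 39 members passed (25.6%), where 22.8% of all genes did, so the number is near that of genes in general. Of all genes 11.5% were higher and 11.3% lower. Of the called members named here, those higher in class 2 were Gabrb2 (462 ± 43.7 CPM against 400 ± 69.5 in class 1 females, SD, 0.26 ± 0.08 log2, SE), Gria4 (0.24 ± 0.07) and Grm7 (0.15 ± 0.06). Lower were Grm4 (17.0 ± 3.68 CPM against 27.4 ± 9.40 in class 1 females, -0.74 ± 0.19 log2), Grin2c (-0.49 ± 0.07), Gabrg1 (-0.44 ± 0.11), Gria1 (-0.33 ± 0.06) and Grik5 (-0.14 ± 0.04). Striatal markers moved with class: their summed median was 515 CPM in class 2 against 1586 in class 1, males included. Drd2, a striatal dopamine receptor, had medians of 3.90 and 28.4 CPM. Olfactory bulb markers moved with class too, with 14.4 against 95.1 CPM over the same libraries. Between class 3 and class 1, 0 of 39 members passed (0.283% of all genes).

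Several members tracked markers of particular cells or regions from library to library, as deviations from group means over 52 libraries. Among 1014 correlations (39 members, 13 lists, r and rho), the highest was that of Gabbr2 with excitatory neuron markers (r = 0.85, rho = 0.88, 0.83 without the 2 farthest libraries, 0.89 in class 1). Grik2 and Grm4 followed the striatal markers (r = 0.78 and 0.76, rho = 0.79 and 0.77), and Grm2 went against them (r = -0.62, rho = -0.62). Gria3 followed excitatory neuron markers (r = 0.69), Grin2c endothelial markers (r = 0.68), Gabrg1 hippocampal and thalamic markers (r = 0.67 and 0.66) and Gabrd, a subunit of receptors outside synapses, oligodendrocyte markers (r = 0.63). Each of these had an adjusted p of 0.000207, or 0.000317 for Gabrd, and kept its sign in class 1. Members past the threshold were most for thalamic markers, with 13 of positive and 5 of negative r. They were fewest for inhibitory neuron markers, with 3 and 3. Striatal markers had 12 and 5, cerebellar markers 9 and 8. The share of all genes past the threshold was not computed.

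**Figure D5:**
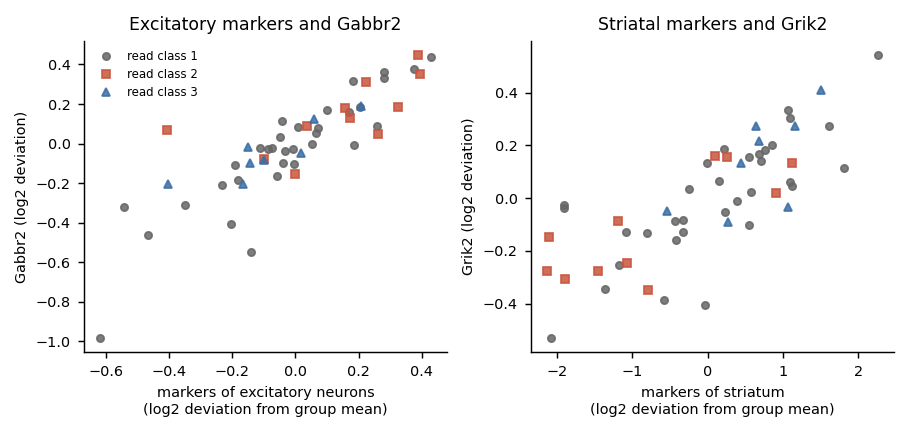
Deviations from group means on the log2 scale in 52 libraries, with read classes 1, 2 and 3 as circles, squares and triangles, for Gabbr2 against the mean of 8 excitatory neuron markers (r = 0.85) and Grik2 against the mean of 10 striatal markers (r = 0.78). Both rise from lower left to upper right.

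Genes that assemble, anchor or serve these receptors were described by lists. Between genotypes, 2 of 18 auxiliary subunits and assembly factors were called, both lower in APP/E4: Cpt1c, an endoplasmic reticulum protein that binds AMPA receptors (98.1 ± 8.51 against 109 ± 10.6 CPM, -0.15 ± 0.04 log2, adjusted p = 0.00844), and Porcn, an acyltransferase found in AMPA receptor complexes (50.3 ± 4.01 against 56.4 ± 6.08 CPM, -0.16 ± 0.04, adjusted p = 0.00384). Of 21 genes of transmitter synthesis and transport 1 was called, Slc12a2, the chloride importer NKCC1, higher in APP/E4 (84.6 ± 13.1 against 70.7 ± 11.6 CPM, 0.25 ± 0.06, adjusted p = 0.00740). These shares stand against 6.79% of all genes called, 3.4% in the lower and 3.39% in the higher direction. Of 22 scaffolds of excitatory synapses and 20 inhibitory scaffolds and GABA receptor partners none was called (edgeR). Between sexes and diets none of these lists had a called gene. All 3 calls held in the 52 fits without 1 library and were lost in class 1 alone (adjusted p 0.178, 0.240 and 0.153). Of 6 further GABA-A family genes outside the rule, Gabrq alone passed the filter, with 0.874 ± 0.854 CPM in APP/E3 and 1.002 ± 0.794 in APP/E4.

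The authors' deposited table gives a log2 coefficient and an unadjusted p for diet. In it 0 of 39 members had a p under 0.05, where 7.69% of all 15692 genes did, and the smallest was 0.121, for Grin3b. Its coefficients have the opposite sign to the HFD minus ND differences fitted here in 93.5% of genes, so their direction is opposite to the one used here.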

How the data were processed

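Bulk mRNA sequencing of frontal cortex gave 1 library for each of 52 mice in 8 groups of genotype, diet and sex, taken from the labels. The deposited table holds whole-number counts per gene for 15692 genes, made by the authors on mm9 with Subread and featureCounts, per the submitters' processing notes, which also name limma and edgeR 3.14.0. Which annotation, strand setting and rule for reads with several matches applied is not given in the sources used here. Reads shared by overlapping genes cannot be told apart. For diet, the authors deposited a log2 coefficient per gene, of no stated direction, and a p-value without adjustment.

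Genes with low counts were removed with filterByExpr (497 genes). The other 15195 genes were scaled by TMM and fitted with edgeR 4.0.16 (R 4.3.3, robust quasi-likelihood, 8 group means, no covariate), with Benjamini-Hochberg adjustment over all genes tested and a threshold of 0.05. There were 10 contrasts and a test over the 8 groups. CPM are TMM-scaled, log2 CPM use a prior count of 2, and subunit ratios a prior count of 0.5. Alternatives were limma 3.58.1 (voom), DESeq2 1.42.0, no filter, terms for read class and title style, class 1 alone, leaving out libraries apart, and leaving out each library. The long-transcript index, its term, leaving out its 4 lowest libraries, and genotype contrasts within strata were chosen after seeing the data. Correlations and ratios were tested with 100000 permutations. Lengths are from GENCODE M21 and promoters from RefSeq, both on GRCm38.p6, matched by symbol (39 of 39 members for length, 24 for promoters), and no coordinates on mm9 are given. The scripts were tested on simulated data.

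Named members are those called, the highest and lowest per length in each class, and the widest difference in each averaged contrast, and others named were chosen after their values were seen. All 39 members enter the fits, counts and sums, and 5 of them are not reported by name here. Members and lists were chosen with earlier results of these data known. Among 146 pairs of libraries within groups the smallest chi-square per gene was 2.95, so none was a repeat of another. Depth was 5.34 to 39.4 M counts, and 3 counts correspond to 0.0762 to 0.561 CPM.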

Additional observations from a re-analysis of the deposited data

Results flagged for a closer look

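Within groups of 5 to 8 libraries, 27 of 312 sets of 1 member in 1 group (8.65%) had 1 library far from the others, in 14 libraries and 22 members. Chance gives about 1 in 20. Of the outlying values 18 were low and 9 high. The 23 of members named here follow.

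APP/E4 ND male 6 was low in Gabrb1 at 11.6 CPM, Grin3a at 13.2 CPM and Grm5 at 203 CPM. APP/E3 HFD female 1 was low in Gabrb1 (11.3 CPM) and Grin2b (14.97 CPM). APP/E3 ND male 2 was low in Grin2a (4.79 CPM), and its Grin2c (44.9 CPM) also stood apart. These are 3 of the 4 libraries lowest in the long-transcript index.

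APP/E3 ND female 7 stood apart in Gabrg3 (3.72 CPM), Grik1 (23.6 CPM) and Grm7 (89.7 CPM). APP/E4 HFD female 4 stood apart in Gabra5 (92.2 CPM), Gria4 (184 CPM) and Grm3 (69.6 CPM). APP/E3 ND male 4 stood apart in Gabra3 (286 CPM) and Grik4 (35.9 CPM).

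The other 8 libraries each stood apart in 1 of these members. APP/E3 ND female 4 had Gria1 at 339 CPM. APP/E3 HFD female 6, which also holds 2402 CPM of the choroid plexus gene Ttr, had Gria2 at 637 CPM. APP/E3 ND male 1 had Grik5 at 264 CPM, a member called between genotypes, whose call held without that library. APP/E4 HFD female 6 had Gabrb2 at 291 CPM and APP/E4 HFD male 3 had Grik3 at 109 CPM. APP/E4 ND female 6 had Grin2a at 16.7 CPM, APP/E4 ND female 7 had Gabra5 at 44.0 CPM and APP/E4 ND male 3 had Grin2c at 76.5 CPM.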

How the results depend on the processing

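Between genotypes 2 members were called. The count was 0 in read class 1 alone, with fewer libraries, 4 with the long-transcript index as a term and 1 without the 4 libraries lowest in it, and 1 to 3 when 1 library was left out. Between sexes it was 5 without those 4 libraries and 0 to 2 with 1 library left out, against 0. The test over the 8 groups called 1 member, but 0 in class 1 alone, with the title style term, without the libraries apart and with the index term, 2 with both terms and with DESeq2, 4 without the 4 lowest and 0 to 3 with 1 library left out. In class 1 alone the ratio of Gria1 to Gria2 differed between genotypes by -0.16. The cause was not tested. The diet contrasts and interactions called 0 members in all fits without 1 library. Grin2b between sexes was not called at -0.27, but was called without the 4 lowest libraries (-0.32) and had the opposite sign with the index (0.18), title style (0.31) or both class and title (0.39) as terms. Depth limits Grin3b most, with a median of 6 counts. Replicate numbers follow accession order and p-values measure the spread between animals. No paired analysis was possible because the labels give no number or litter that links animals across groups.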
